A study of Mus musculus with 12 samples.

Results

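Inpp5k, Derl3, Odf2, Elmod2, Apba1, Olr1, Plxna4 and Enpp1 are 8 genes, of 15754 in the count table, whose messages differed in level between mouse fat cells given a let-7d-5p mimic and fat cells given a let-7e-5p mimic. They were chosen by their measured levels, which differed between the mimics, and as genes in which no long stretch of pairing between message and microRNA was thought to account for that. All 8 symbols had a line in the count table, and all 8 genes had counts in every library. Because the contrast between let-7d and let-7e chose the genes, their values in that contrast are given as a description with no test. Inpp5k, Derl3, Odf2 and Elmod2 were higher with let-7d than with let-7e, and Apba1, Olr1, Plxna4 and Enpp1 were lower.

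The cells were primary white adipocytes, differentiated from the stromal vascular fraction of epididymal fat of wild-type male C57BL/6 mice, 8 weeks old and fed chow. Every culture was induced with rosiglitazone at 1 µM, insulin at 850 nM, dexamethasone at 1 µM and IBMX at 250 µM, a mixture that turns precursor cells into fat cells, and was kept on rosiglitazone and insulin afterwards. The 3 groups were a let-7d-5p mimic, a let-7e-5p mimic and a negative control, each delivered with Lipofectamine RNAiMAX on day 4 and harvested on day 7. Each group had 4 libraries, which fall into 2 series of sample identifiers, called ID series 1 (replicates 1 and 2 of each group) and ID series 2 (replicates 3 and 4).

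The libraries held between 15071299 and 33396316 counts. What sets the ID series apart is not given in the sources used here, and the first principal component, with 81.9% of the variance, separated them. The summed level of 11 adipocyte markers, Fabp4 and Cidec among them, lay between 17400 and 19400 CPM (counts scaled to library size) in ID series 1 and between 3930 and 5730 CPM in ID series 2, with the 3 groups overlapping in each. Col1a1 and Col3a1, collagens of fibroblasts and precursors, were also high, at a mean of 11500 CPM and 8910 CPM. The 10 markers of preadipocytes and fibroblasts summed to 26100 to 27100 CPM with let-7d, 28800 to 30300 CPM with let-7e and 26300 to 28600 CPM with the control in ID series 1. In ID series 2 they summed to 17300 to 17400 CPM with let-7d, 16000 to 17300 CPM with let-7e and 14900 to 15500 CPM with the control. These markers were thus lower with let-7d than with let-7e in ID series 1 and higher with both mimics than with the control in ID series 2, and their part in the values of the 8 genes was not tested. In bulk RNA, fewer cells of a type and less RNA per cell cannot be told apart. Each ID series held 2 libraries of every group, so the groups are compared within each series.

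The let-7 microRNAs guide Argonaute proteins to messages, mostly through pairing of the seed, which is bases 2 to 8 of the microRNA, with a matching stretch of the 3′ UTR. Such messages are destabilised or translated less. Family members share the seed and differ in a few bases outside it, so most of their targets are expected to be common, and pairing beyond the seed can add to the binding of one member over another.

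The mature sequences of the microRNAs, from RefSeq on the build GRCm38.p6, are shown because everything that could tell the mimics apart by pairing lies in the few bases that differ. The seed is in capitals.
let-7d-5p: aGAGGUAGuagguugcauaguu
let-7e-5p: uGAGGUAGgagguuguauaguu
Both have the seed GAGGUAG and share 19 of 22 bases. With let-7d as the first base, and positions counted from 1 at the 5′ end, the differences are A1U, U9G and C16U. The let-7d-5p sequence lies on chromosome 13 from 48536078 to 48536099 on the minus strand, and that of let-7e-5p on chromosome 17 from 17830366 to 17830387 on the plus strand. The labels name the mimics and give no sequence of the molecules that were transfected.

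Sites were sought in 1 protein-coding transcript per gene, the one with the longest annotated 3′ UTR, for the letters CTACCTCA (8mer), CTACCTC (7mer-m8) and TACCTCA (7mer-A1) on the message strand, the shorter ones counted only outside the longer. Of 13539 genes with such a 3′ UTR, 17.0% held at least 1 of these. Among the 8 genes, Apba1, Olr1 and Plxna4 held one, and all 3 are among the 4 genes lower with let-7d. Inpp5k, Derl3, Odf2, Elmod2 and Enpp1 held none in the 3′ UTR or the coding sequence. The strongest 3′ UTR site of each of the 3 genes is shown with the 14 bases before it, and capitals mark the bases that match the site.
Apba1: tccagagtaacctaCTACCTCc
Olr1: gtactcagtctcctCTACCTCA
Plxna4: gcgtcaaggagattCTACCTCc
The Apba1 site is chr19:23948869-23948890 on the plus strand, the Olr1 site chr6:129487318-129487339 on the minus strand and the Plxna4 site chr6:32149482-32149503 on the minus strand (GRCm38). The Olr1 site is an 8mer, which 3.74% of 3′ UTRs held. The sites of Apba1 and Plxna4 are of the 7mer-m8 kind, which 7.34% of 3′ UTRs held, and Plxna4 had a further 7mer-A1 (8.10% of 3′ UTRs held one) in a 3′ UTR of 6221 bases. The median 3′ UTR over all genes was 1187 bases long, and a longer UTR holds more matches of any short motif. Those of Apba1 (3815 bases) and Olr1 (2422 bases) were also longer than the median, as were those of Elmod2 (3684) and Enpp1 (3892), which held no site. The sites match the seed that both mimics share, and their part in the direction of the differences was not tested.

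Pairing beyond the seed was measured as the longest unbroken run of Watson-Crick pairs anywhere in the chosen transcript, both UTRs included. For 3 of the 8 genes the longest run reached 10 bases with one mimic and not with the other, against the premise on which the genes were gathered. These 3 windows are shown because their run reached 10 bases with let-7d-5p or let-7e-5p alone, and the unbroken run is in capitals.
Apba1, 3′ UTR, with let-7d-5p: tccagagtAACCTACTACCTCc
Inpp5k, coding, with let-7e-5p: agtgtacCAACCTCCTACttct
Odf2, coding, with let-7e-5p: ccctatacatCCTCCTACCTga
In Apba1 the run covered 13 bases of let-7d-5p, positions 2 to 14, and broke after 7 bases with let-7e-5p, where position 9 is mismatched. Of 13584 genes, 6 had a run of 13 or more with let-7d-5p, and Apba1 was the only gene with one that began at position 2 in the 3′ UTR. In Inpp5k the run covered 11 bases of let-7e-5p, positions 5 to 15, at chr11:75645513-75645534 on the plus strand, a length reached with let-7e-5p by 1.05% of genes. It does not include the whole seed, and 14 of 22 bases of the window paired with either mimic. The window lay in 1 of 2 protein-coding transcripts of Inpp5k. In Odf2 the run covered 10 bases of let-7e-5p, positions 3 to 12, at chr2:29930602-29930623 on the plus strand, a length reached by 4.23% of genes. The Odf2 window paired at 18 of 22 bases with let-7e-5p and at 15 with let-7d-5p, and it lay in 5 of 14 protein-coding transcripts of Odf2.

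The gene that had the longer run with a mimic was lower with that mimic in these 3 cases. They were picked by a minimum of 10 bases that was set after the values were seen. Below that minimum, Derl3 went the same way, with a longest run of 7 with let-7d-5p and 8 with let-7e-5p. Olr1 and Plxna4, also at 7 and 8, and Elmod2, at 7 and 6, went the other way. Enpp1 had 7 with both. The same measure over all genes is given as a description. The 552 genes with a run of at least 10 with let-7e-5p alone had a median log2 difference of -0.011 between let-7d and let-7e, and 46.0% of them were higher with let-7d. The 297 genes with such a run with let-7d-5p alone had a median of -0.024, and 39.4% were higher with let-7d. All 13584 genes had a median of -0.006, and 47.3% were higher. Of the 6 genes with a window of 18 or more pairs with let-7e-5p, P2rx4, an ATP-gated ion channel, had a log2 difference between let-7d and let-7e of 1.197, Tnfsf10, a death receptor ligand, 0.418, Odf2 0.366, and Sumf2, Ank3 and Dicer1 between -0.069 and 0.004. In Plxna4 a coding window at chr6:32516947-32516968 on the minus strand paired at 16 of 22 bases with let-7d-5p and at 13 with let-7e-5p, and 1.30% of genes reached 16. The 177 genes that did had a median log2 difference between let-7d and let-7e of -0.004, with 87 higher and 90 lower with let-7d. The 254 genes with 16 or more pairs with let-7e-5p had a median of -0.014, with 115 higher and 139 lower. Derl3, Elmod2, Olr1, Plxna4 and Enpp1 had no run longer than 8 with either mimic, and 35.6% of genes had a run of at least 8 with let-7d-5p and 43.6% with let-7e-5p. Whether any of this pairing plays a part in the levels was not tested.

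**Figure D1:**
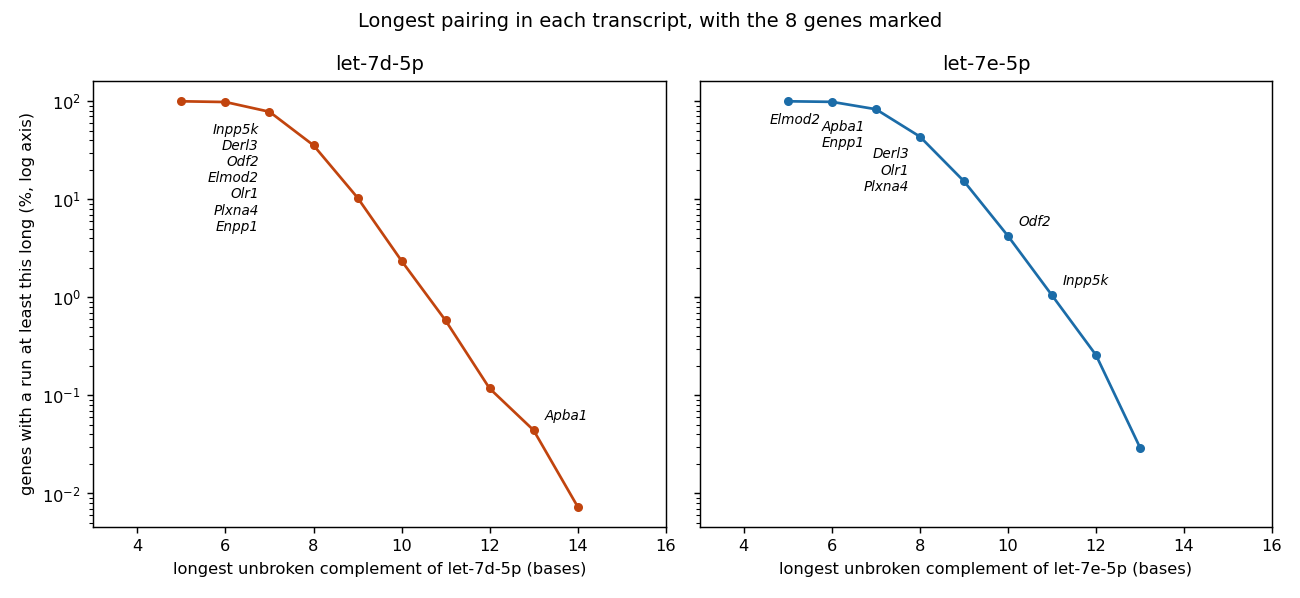
Share of genes (percent, log axis) with an unbroken run of pairs, anywhere in the transcript, at least as long as the horizontal axis value. The left panel is for let-7d-5p and the right for let-7e-5p, with the 8 genes named at their own longest run. Apba1 stands at 13 bases with let-7d-5p, and Inpp5k and Odf2 at 11 and 10 bases with let-7e-5p, while every other gene of the 8 stands at 8 or below.

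Levels are given as CPM scaled by the trimmed mean of M-values (TMM), and differences are edgeR log2 fold changes ± standard error (SE), fitted over all 12 libraries with a term for the ID series. Per kilobase of exon, Enpp1 had the highest mean level over the 12 libraries, 7.16 CPM per kb, followed by Elmod2 (5.96), Odf2 (4.59), Olr1 (4.23), Inpp5k (3.34), Derl3 (2.42), Plxna4 (2.39) and Apba1 (1.30). The length used was that of all annotated exons of a gene merged, such as 9919 bases for Odf2 and 10257 for Enpp1. Single transcripts can be much shorter, so the order of the genes depends on that choice of length. Across single libraries the levels of Enpp1 ran from 4.17 to 13.4 CPM per kb and those of Elmod2 from 3.57 to 8.58, so neighbours in this order overlap. The order differed between the series. In ID series 1 Elmod2 had the highest mean, 7.59 CPM per kb, before Enpp1 and Odf2 (5.03 each), Derl3 (4.03), Plxna4 (3.62), Inpp5k (3.23), Olr1 (2.21) and Apba1 (1.57). ID series 2 had Enpp1 at 9.30 CPM per kb, Olr1 at 6.25, Elmod2 at 4.33, Odf2 at 4.14, Inpp5k at 3.46, Plxna4 at 1.16, Apba1 at 1.03 and Derl3 at 0.809. Within each ID series, no let-7d library overlapped a let-7e library in any of the 8 genes, with the same direction in both series. Of all 15754 genes, 12.9% separated in this way, and since this contrast chose the 8 genes nothing is read from it.

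**Figure D2:**
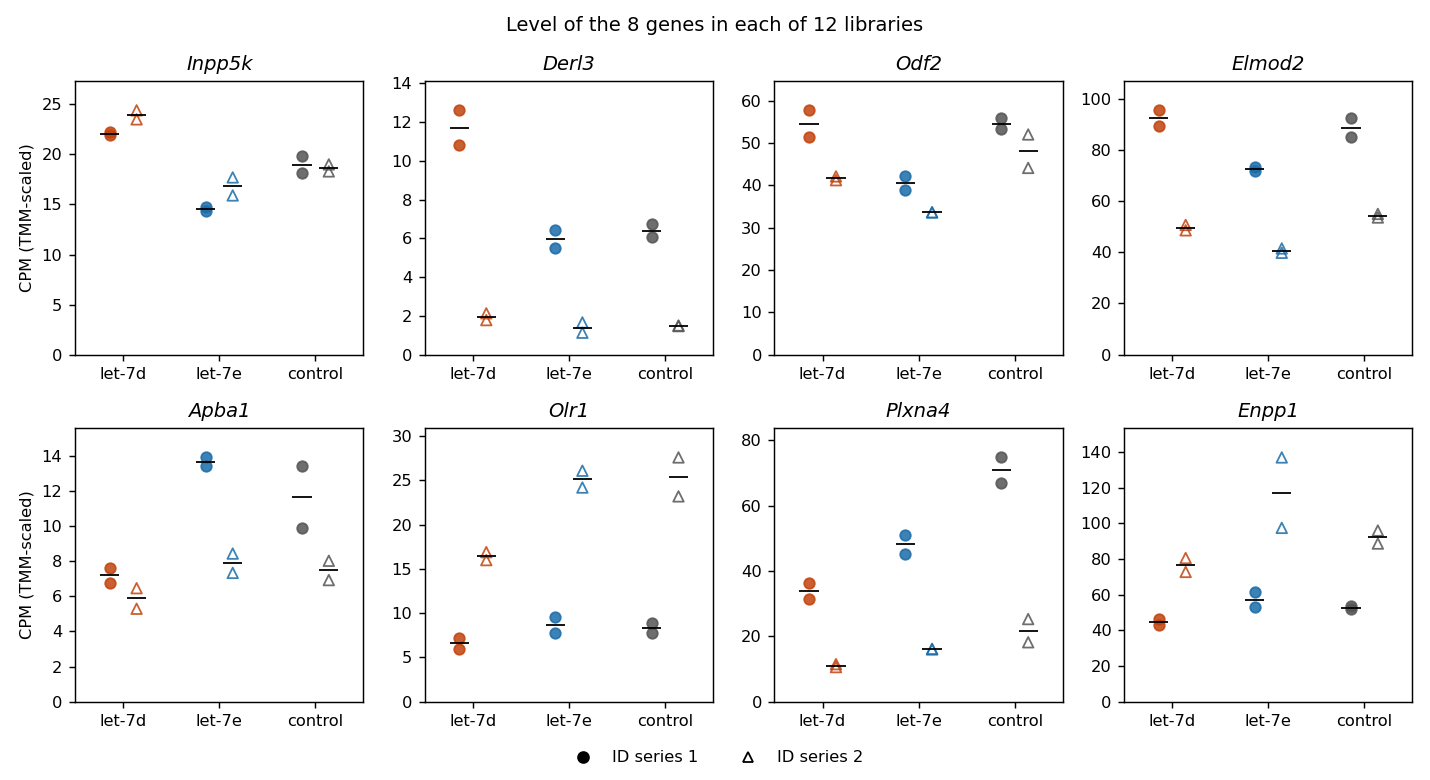
Level of each gene (CPM, TMM-scaled, axis from 0) in the let-7d, let-7e and control libraries, with circles for ID series 1, triangles for ID series 2 and bars for the mean of the 2 libraries. Within a series the let-7d points of each gene lie all above the let-7e points (upper panels) or all below them (lower panels), and Derl3, Elmod2, Olr1, Plxna4 and Enpp1 differ more between the series than between the mimics.

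Inpp5k (ENSMUSG00000006127.9, chromosome 11 from 75630988 to 75648871) encodes a phosphatase that removes the 5-phosphate of inositol lipids and is known to restrain insulin signalling. Its level in ID series 1 was 21.9 and 22.2 CPM in the let-7d libraries, 14.7 and 14.3 CPM in the let-7e libraries, and 18.1 and 19.8 CPM in the control libraries. Its level in ID series 2 was 23.5 and 24.4 CPM with let-7d, 15.9 and 17.7 CPM with let-7e, and 18.3 and 19.0 CPM with the control. Over all 12 libraries the 3 groups did not overlap, with let-7d highest, the control between and let-7e lowest. It was the only one of the 8 genes in which all let-7d libraries lay above all let-7e libraries across both series. It was also the only one whose difference between the ID series did not pass (0.10 ± 0.054, edgeR adjusted p = 0.0872). A shift between the series makes groups overlap across them. The share of all genes separated in this way was not counted, and this contrast chose the genes, so nothing is read from it. The log2 difference between let-7d and let-7e was 0.55 ± 0.066 (1.47-fold), between let-7d and control 0.30 ± 0.066, and between let-7e and control -0.26 ± 0.067. The mimics stood on opposite sides of the control in both series, with let-7d at 0.24 ± 0.087 and let-7e at -0.36 ± 0.09 in ID series 1, and let-7d at 0.38 ± 0.098 and let-7e at -0.15 ± 0.099 in ID series 2.

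Derl3 (ENSMUSG00000009092.5, chromosome 10 from 75893413 to 75895941) encodes a derlin, a membrane protein of the endoplasmic reticulum that takes part in the removal of misfolded glycoproteins. The gene stood in ID series 1 at 10.8 and 12.6 CPM with let-7d, 6.42 and 5.52 CPM with let-7e, and 6.75 and 6.05 CPM with the control. Libraries of ID series 2 held less, 1.78 and 2.13 CPM with let-7d, 1.13 and 1.66 CPM with let-7e, and 1.5 and 1.47 CPM with the control. The let-7d libraries were the highest of each series, and the let-7e and control libraries overlapped. Between let-7d and let-7e the log2 difference was 0.81 ± 0.14 (1.76-fold), the largest of the 8, with 0.97 ± 0.14 in ID series 1 alone and 0.51 ± 0.27 in ID series 2 alone, where the libraries held 36 to 53 counts. Between let-7d and control it was 0.71 ± 0.15, and between let-7e and control -0.11 ± 0.15.

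Odf2 (ENSMUSG00000026790.19, chromosome 2 from 29889221 to 29931746) encodes a protein of the appendages of the mother centriole that is also part of the outer dense fibres of the sperm tail. With let-7d it had 57.7 and 51.4 CPM in ID series 1, beside 39.0 and 42.2 CPM with let-7e and 53.2 and 55.8 CPM with the control. The second series had 41.2 and 42.1 CPM with let-7d, 33.6 and 33.6 CPM with let-7e, and 44.1 and 52.0 CPM with the control. The let-7e libraries were the lowest of each series, and all 4 lay below all 4 control libraries. The let-7d libraries overlapped the controls in ID series 1 and lay below them in ID series 2. On the log2 scale, let-7d and let-7e differed by 0.37 ± 0.064 (1.29-fold), with -0.10 ± 0.063 between let-7d and control and -0.47 ± 0.064 between let-7e and control. The annotation places a small nuclear RNA gene, Gm23865, on the opposite strand over 97 exon bases of Odf2, and the strand setting of the counting is not given in the sources used here.

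Elmod2 (ENSMUSG00000035151.12, chromosome 8 from 83312632 to 83332486) encodes an ELMO-domain protein that makes small GTPases of the ARL family hydrolyse their GTP. Elmod2 had 89.3 and 95.5 CPM with let-7d, 73.3 and 71.9 CPM with let-7e, and 85 and 92.5 CPM with the control in ID series 1. It had 50.7 and 48.6 CPM with let-7d, 41.5 and 39.8 CPM with let-7e, and 55.0 and 53.6 CPM with the control in ID series 2. As with Odf2, let-7e was lowest in each series, and let-7d overlapped the control in ID series 1 and lay below it in ID series 2. The log2 difference between let-7d and let-7e was 0.32 ± 0.052 (1.25-fold), between let-7d and control -0.032 ± 0.052, and between let-7e and control -0.35 ± 0.052. The centred levels of Odf2 and Elmod2 had a Pearson correlation of 0.894 over the 12 libraries, which share the group differences that chose both genes.

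Apba1 (ENSMUSG00000024897.9, chromosome 19 from 23758887 to 23949596) encodes an adaptor that binds the amyloid precursor protein and is best known from neurons. Levels of Apba1 were 6.77 and 7.62 CPM with let-7d, 13.9 and 13.4 CPM with let-7e, and 9.86 and 13.4 CPM with the control in ID series 1. They were 5.29 and 6.46 CPM with let-7d, 7.33 and 8.43 CPM with let-7e, and 6.92 and 8.02 CPM with the control in ID series 2. The let-7d libraries were the lowest of each series, and the let-7e and control libraries overlapped. Between let-7d and let-7e the log2 difference was -0.67 ± 0.12 (0.629-fold), the lowest of the 8, with -0.92 ± 0.15 in ID series 1 alone and -0.40 ± 0.16 in ID series 2 alone. Between let-7d and control it was -0.50 ± 0.13, and between let-7e and control 0.17 ± 0.12. The 13-base run with let-7d-5p is in this gene, in 1 of its 2 protein-coding transcripts.

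Of 8 listed markers of neurons and Schwann cells, 2 were in the count table. Their summed level, nearly all of it Tubb3, a tubulin, was 50.3 to 53.9 CPM with let-7d, 58.8 to 66.1 CPM with let-7e and 68.3 to 78.3 CPM with the control in ID series 1. For ID series 2 it was 55.2 to 57.3 CPM with let-7d, 61.0 to 68.7 CPM with let-7e and 65.4 to 73.7 CPM with the control. The other defining markers, Snap25, Syt1 and Rbfox3 among them, had no line in the table. The part of Tubb3 levels in the Apba1 values was not tested. An antisense gene, AC148021.1, covers 289 exon bases of Apba1 and had no line in the table.

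Olr1 (ENSMUSG00000030162.14, chromosome 6 from 129485244 to 129507165) encodes the receptor LOX-1, which takes up oxidised low-density lipoprotein in endothelium, macrophages and other cells. Olr1 had 7.23 and 5.99 CPM with let-7d, 7.78 and 9.59 CPM with let-7e, and 7.78 and 8.90 CPM with the control in ID series 1. Levels were higher in ID series 2, at 16.9 and 16 CPM with let-7d, 26.1 and 24.2 CPM with let-7e, and 23.2 and 27.6 CPM with the control. The let-7d libraries were the lowest of each series, by little in ID series 1, and the let-7e and control libraries overlapped. On the log2 scale, let-7d and let-7e differed by -0.53 ± 0.095 (0.690-fold), with -0.52 ± 0.096 between let-7d and control and 0.013 ± 0.091 between let-7e and control. The 8mer of Olr1 faces the seed shared by both mimics.

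Macrophage and endothelial markers, cells in which Olr1 is known, were also summed. All 12 macrophage markers were in the table, Lyz2 the highest, and their sum was 264 to 281 CPM with let-7d, 202 to 301 CPM with let-7e and 267 to 273 CPM with the control in ID series 1. The sum in ID series 2 was 60.9 to 135 CPM with let-7d, 44.9 to 69.4 CPM with let-7e and 25.5 to 36.1 CPM with the control. In that series both mimics lay above the control in these messages and overlapped each other, while Olr1 was lowest with let-7d. The 10 endothelial markers summed to 374 to 420 CPM with let-7d, 418 to 424 CPM with let-7e and 393 to 411 CPM with the control in ID series 1. They summed in ID series 2 to 274 to 370 CPM with let-7d, 269 to 297 CPM with let-7e and 267 to 272 CPM with the control. The part of either cell type in the Olr1 values was not tested.

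Plxna4 (ENSMUSG00000029765.12, chromosome 6 from 32144268 to 32588192) encodes a plexin, a receptor for semaphorins that guides axons and also acts in other tissues. Plxna4 had 36.2 and 31.6 CPM with let-7d, 45.3 and 51.1 CPM with let-7e, and 74.8 and 67.1 CPM with the control in ID series 1. All groups were lower in ID series 2, at 11.5 and 10.6 CPM with let-7d, 16.2 and 16 CPM with let-7e, and 18.2 and 25.3 CPM with the control. In both series let-7d was lowest, let-7e between and the control highest, with no overlap between any of the groups. Between let-7d and let-7e the log2 difference was -0.52 ± 0.089 (0.695-fold), between let-7d and control -1.03 ± 0.089 (0.491-fold), and between let-7e and control -0.50 ± 0.085 (0.706-fold). Plxna4 was the only one of the 8 genes with a difference from control beyond 2 SE in the same direction with both mimics. An antisense gene, Plxna4os3, covers 110 exon bases of Plxna4 and had no line in the table.

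Smooth muscle and pericyte markers were also summed, to be set beside Plxna4. All 10 were in the table, Acta2 the highest, and their sum was 3630 to 3770 CPM with let-7d, 3410 to 3710 CPM with let-7e and 4020 to 5110 CPM with the control in ID series 1. It was 5600 to 6150 CPM with let-7d, 5950 to 6070 CPM with let-7e and 7080 to 7450 CPM with the control in ID series 2. These markers were lower with both mimics than with the control and overlapped between the mimics, and they were higher in ID series 2, where Plxna4 was lower. Their part in the Plxna4 values was not tested.

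Enpp1 (ENSMUSG00000037370.13, chromosome 10 from 24637914 to 24712159) encodes an ectoenzyme that splits nucleotides to make pyrophosphate and is known to inhibit the insulin receptor. Enpp1 had 46.6 and 42.8 CPM with let-7d, 53.2 and 61.3 CPM with let-7e, and 53.6 and 51.8 CPM with the control in ID series 1. It had 80.6 and 72.8 CPM with let-7d, 137 and 97.5 CPM with let-7e, and 88.7 and 96.0 CPM with the control in ID series 2. The let-7d libraries were the lowest of each series, and let-7e overlapped the control in ID series 1 and lay above it in ID series 2, mostly through 1 library at 137 CPM. Between let-7d and let-7e the log2 difference was -0.50 ± 0.092 (0.710-fold), between let-7d and control -0.26 ± 0.093, and between let-7e and control 0.24 ± 0.091.

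Set beside the control, the 8 genes took several forms. In Inpp5k and Enpp1 the mimics stood on opposite sides of the control. For Enpp1 the distance of let-7e from the control rested on 1 library, and without let-7e replicate 3 it was 0.099, beside -0.26 for let-7d. In Derl3, Apba1 and Olr1 let-7d stood away from the control and let-7e less than 2 SE from it. In Odf2 and Elmod2 let-7e stood below the control and let-7d less than 2 SE from it, and in Plxna4 let-7d stood below it by 2.04 times as much as let-7e. The let-7d libraries lay on one side of the controls in both series in 6 of the 8 genes (23.8% of all genes did), above them in Inpp5k and Derl3 and below them in Apba1, Olr1, Plxna4 and Enpp1. The let-7e libraries did so in 4 genes (19.1% of all genes did), below the controls in Inpp5k, Odf2, Elmod2 and Plxna4. Both counts share the mimic libraries with the contrast that chose the genes and the control libraries with each other, so nothing is read from them.

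**Figure D3:**
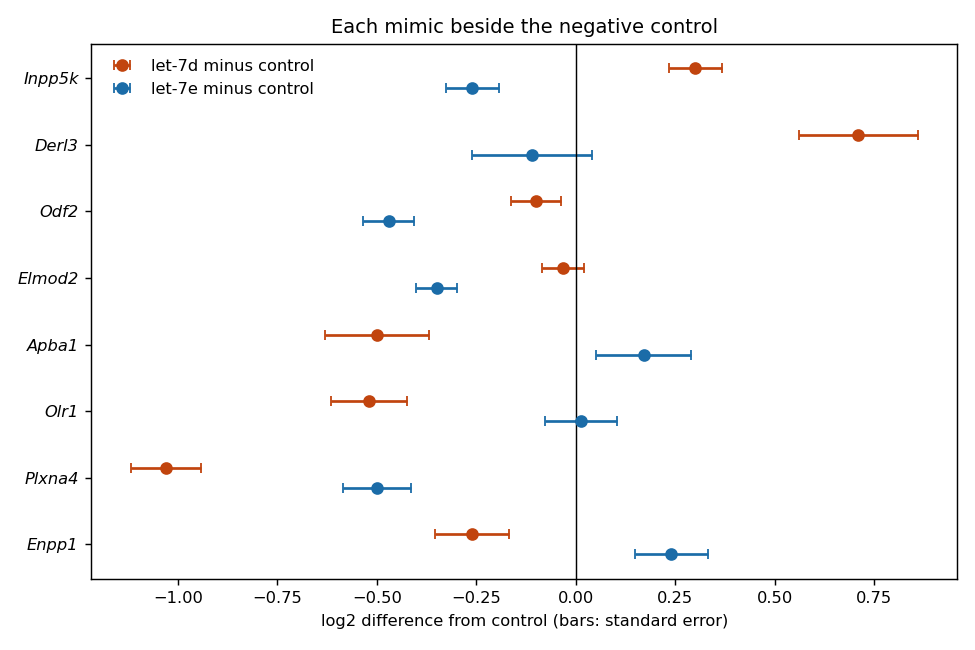
Log2 difference from the negative control of let-7d (upper point of each gene) and let-7e (lower point), with bars of 1 SE from the fit to 12 libraries. Plxna4 lies left of 0 with both mimics, at -1.03 and -0.50, while Inpp5k has let-7d at 0.30 and let-7e at -0.26.

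The difference between let-7d and let-7e kept its sign in both ID series in all 8 genes. The choice of the genes on this contrast favours that, so nothing is read from it. In Inpp5k it was 0.60 ± 0.087 in ID series 1 and 0.53 ± 0.098 in ID series 2, in Plxna4 -0.51 ± 0.09 and -0.52 ± 0.15, and in Elmod2 0.35 ± 0.066 and 0.31 ± 0.073. Odf2 had 0.42 ± 0.076 in ID series 1 and 0.33 ± 0.091 in ID series 2, Olr1 -0.40 ± 0.16 and -0.60 ± 0.11, and Enpp1 -0.36 ± 0.08 and -0.59 ± 0.13. Derl3 and Apba1 had the widest gap between the series, with the larger difference in ID series 1 in both. Over all 15754 genes, 24 (0.152%) passed the edgeR test between the mimics at an adjusted p under 0.05, all 8 genes among them, which is what the choice fixed. That number fell to between 3 and 17 when any 1 mimic library was left out, and Inpp5k was the only one of the 8 that passed in each of those 8 fits. Those fits reuse the contrast and the libraries that chose the genes, so nothing is read from which gene passed.

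**Figure D4:**
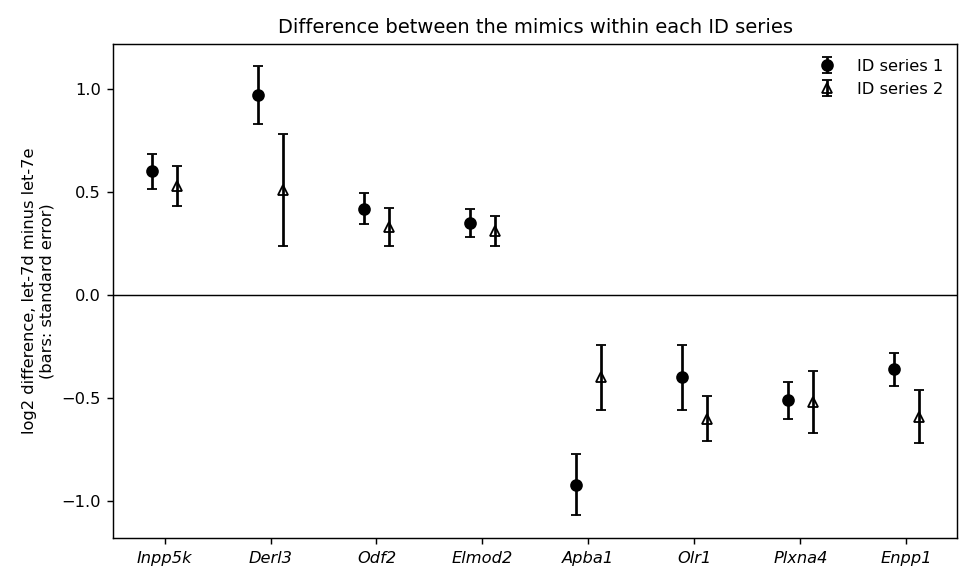
Log2 difference between let-7d and let-7e for each gene within ID series 1 (circles) and ID series 2 (triangles), from fits to the 6 libraries of a series, with bars of 1 SE. Each gene lies on the same side of 0 in both series, which the choice of the genes on this axis favours. Derl3 and Apba1 have the widest gaps, at 0.97 and 0.51 and at -0.92 and -0.40.

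The mean of both mimics against the control was tested, since with equal group sizes it is orthogonal to the difference between the mimics. It is not free of the choice of genes: both contrasts use the same residual spread, and a gene that one mimic moves also moves the mean. Plxna4 fell by 0.77 on the log2 scale (-0.77 ± 0.073, edgeR adjusted p = 6.30e-06), Odf2 fell by 0.29 (-0.29 ± 0.055, adjusted p = 0.00188), Elmod2 fell by 0.19 (-0.19 ± 0.045, adjusted p = 0.00717) and Olr1 fell by 0.25 (-0.25 ± 0.081, adjusted p = 0.0403). These are 4 of the 8 genes, all downward, where 16.7% of all 15754 genes passed, 6.63% upward and 10.0% downward, and the choice of genes can favour that count. In Olr1 the difference of let-7e from control was 0.013 and in Elmod2 that of let-7d was -0.032, so these means rested on 1 mimic. Derl3 (0.30 ± 0.13, adjusted p = 0.136), Apba1 (-0.17 ± 0.11, adjusted p = 0.32), Inpp5k (0.021 ± 0.058, adjusted p = 0.85) and Enpp1 (-0.0082 ± 0.08, adjusted p = 0.96) did not pass. For Inpp5k the range of 2 SE on either side ran from -0.094 to 0.14 and for Enpp1 from -0.17 to 0.15, on the log2 scale.

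The calls differed in how firmly they stood. Within ID series 1 and ID series 2, Plxna4 had -0.81 ± 0.074 and -0.69 ± 0.12, Odf2 -0.20 ± 0.066 and -0.35 ± 0.078, Elmod2 -0.10 ± 0.057 and -0.26 ± 0.062, and Olr1 -0.13 ± 0.14 and -0.31 ± 0.09. In edgeR fits to ID series 1 alone, Odf2 had an adjusted p of 0.0563, Elmod2 of 0.252 and Olr1 of 0.564. Olr1 passed in 10 of the 21 alternative fits, with adjusted p from 0.0229 to 1. Its call was lost without control replicate 2 (adjusted p = 0.075) or 4 (0.22), without let-7d replicate 2 (0.0622), 3 (0.0628) or 4 (0.0832), without let-7e replicate 1 (0.0708) or 4 (0.076), in ID series 2 alone (0.0846), with no series term (1) and in the blocked fit on replicate number (0.0515). Odf2 passed in 19 of 21 fits (adjusted p from 4.68e-05 to 0.8), Elmod2 in 19 (0.000999 to 1) and Plxna4 in 20 (6.56e-18 to 1).

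Levels differed more between the ID series than between the mimics in 5 of the 8 genes. ID series 2 was lower than ID series 1 in Derl3 by a log2 difference of -2.29 ± 0.12 (edgeR adjusted p = 2.17e-11), in Plxna4 by -1.64 ± 0.072 (adjusted p = 1.94e-12), in Elmod2 by -0.81 ± 0.042 (adjusted p = 1.63e-11), in Apba1 by -0.60 ± 0.10 (adjusted p = 4.16e-05) and in Odf2 by -0.28 ± 0.052 (adjusted p = 0.000108). It was higher in Olr1 by 1.5 ± 0.078 (adjusted p = 1.55e-11) and in Enpp1 by 0.88 ± 0.075 (adjusted p = 1.06e-08). Inpp5k, at 0.10 ± 0.054 (adjusted p = 0.0872), did not pass, and passed without control replicate 2 (0.13, adjusted p = 0.0376). The count of 7 of 8 stands beside 81.7% of all genes, 41.7% higher and 40.0% lower in ID series 2. The change between both mimics and control did not pass a test of its difference between the series in any of the 8 genes: edgeR, DESeq2 and limma-voom each called 0 of 8, 0 of 8 had an unadjusted p under 0.05, and the edgeR adjusted p ran from 0.415 to 0.91. Over all genes 0.4% passed that test. The SE of this difference was between 0.082 (Elmod2) and 0.26 (Derl3) on the log2 scale, so differences of that size between the series were not detectable.

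Each of the 8 genes was set beside relatives of its family or pathway: phosphatases of inositol lipids, endoplasmic reticulum-associated degradation, centriole appendages, ELMO-domain and ARL proteins, adaptors of the amyloid precursor protein, scavenger receptors, plexins with semaphorins, and enzymes of pyrophosphate and extracellular nucleotides. Of 170 relatives, 161 were tested, and 0 passed the edgeR test between let-7d and let-7e, where 0.152% of all genes passed. limma-voom likewise called 0, DESeq2 called 4 (Nploc4, Scara5, Scarb1 and Sema3b), and 24 (14.9%) had an unadjusted edgeR p under 0.05, against 9.31% of all genes. The median log2 difference of the 161 was 0.0032, and that of all genes -0.0042. The 16 nearest relatives by name, such as Derl1 and Derl2, Inpp5b and Ocrl, Elmod1 and Elmod3, Apba2 and Apba3, Plxna1 to Plxna3 and Enpp2 to Enpp5, had log2 differences between let-7d and let-7e from -0.11 (Enpp3) to 0.61 (Apba2, SE 0.41). None of the 16 passed with edgeR, DESeq2 or limma-voom, and 1 had an unadjusted edgeR p under 0.05. Enpp6, a further relative of Enpp1 in the same list, had -0.84 ± 0.54 (edgeR adjusted p = 0.666) at levels between 0.0378 and 0.531 CPM, a larger difference than that of Enpp1 with a far larger error.

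**Figure D5:**
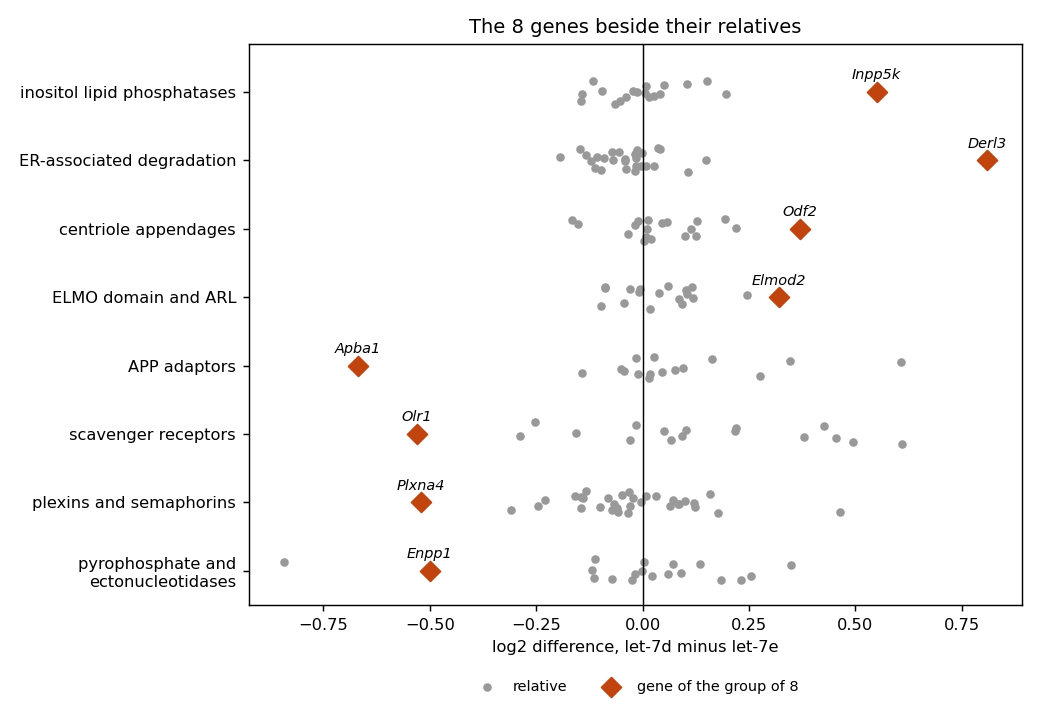
Log2 difference between let-7d and let-7e of the 8 genes (diamonds) and of the 161 tested relatives (grey points, spread vertically for legibility) in 8 lists. All diamonds but that of Enpp1 lie beyond every relative of their own list on their side of 0, which the choice of the 8 genes on this axis favours, and the relatives of each list have medians from -0.039 to 0.098.

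For both mimics against control, 32 of the 161 relatives passed (19.9%, against 16.7% of all genes), 16 upward and 16 downward, with a median log2 difference of -0.016. DESeq2 called 39. Among plexins and semaphorins 1 of 32 rose and 5 fell. Plxna2, a plexin of the same class as Plxna4, fell by 0.41 (-0.41 ± 0.081, edgeR adjusted p = 0.00262) to 33.0 ± 27.0 CPM with let-7d and 32.8 ± 28.5 CPM with let-7e, against 44.8 ± 39.5 CPM with the control (SD, n = 4 each, both series together). Farp1, which binds plexins, fell by 0.26 (-0.26 ± 0.05, adjusted p = 0.00217), and Sema3b, a secreted semaphorin, rose by 0.55 ± 0.099 (adjusted p = 0.00133).

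Among enzymes of pyrophosphate and extracellular nucleotides 5 of 18 rose and 3 fell. Alpl, the phosphatase that degrades pyrophosphate, rose by 0.50 ± 0.068 (edgeR adjusted p = 0.000127), Enpp2, which makes lysophosphatidic acid, by 0.45 ± 0.10 (adjusted p = 0.00625), Enpp4 by 0.31 ± 0.063 (adjusted p = 0.00315) and Slc29a1, a nucleoside transporter, by 0.27 ± 0.05 (adjusted p = 0.00151). Among scavenger receptors 3 of 16 rose and 2 fell, with Scarb2, a lysosomal membrane protein, up by 0.23 ± 0.043 (adjusted p = 0.00146), Scara3 at -0.36 ± 0.056 (adjusted p = 0.000451) and Scarb1, a receptor of high-density lipoprotein, at -0.32 ± 0.054 (adjusted p = 0.000886). These lists moved in both directions.

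In the list of endoplasmic reticulum-associated degradation 2 of 27 rose and 2 fell. Sdf2l1, a chaperone cofactor, rose by 0.40 ± 0.067 (edgeR adjusted p = 0.000689), while Nploc4, a cofactor of the p97 ATPase, had -0.25 ± 0.043 (adjusted p = 0.000946) and Dnajb9, another cochaperone, -0.15 ± 0.047 (adjusted p = 0.0339). Among phosphatases of inositol lipids 2 of 18 rose and 1 fell, with Pip4p1 up by 0.19 ± 0.057 (adjusted p = 0.0332). Inpp5a, the 5-phosphatase of soluble inositol phosphates, fell to 79.1 ± 8.29 CPM with let-7d and 85.9 ± 9.29 CPM with let-7e, against 104 ± 5.08 CPM with the control (SD, n = 4 each), a log2 difference of -0.34 ± 0.048 (adjusted p = 0.000165).

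In the remaining lists few members passed. Among centriole appendage proteins 1 of 18 rose, Ninl (0.23 ± 0.067, edgeR adjusted p = 0.0295), and 1 fell, Cep164 (-0.19 ± 0.054, adjusted p = 0.0263). Among ELMO-domain and ARL proteins Arl2bp, which binds ARL2, rose by 0.15 ± 0.043 (adjusted p = 0.0208), while Unc119, a carrier of lipid-modified proteins, fell by 0.34 (-0.34 ± 0.044, adjusted p = 7.47e-05) and Dock1, the partner of ELMO in activating Rac, fell by 0.16 (-0.16 ± 0.046, adjusted p = 0.0203), of 17 tested. Among adaptors of the amyloid precursor protein 1 of 15 rose, Lin7c, which joins Apba1 in a complex (0.23 ± 0.052, adjusted p = 0.00543).

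Over the 12 libraries, with each gene centred within its ID series, the genes most like each of the 8 among 11345 genes were found by Pearson correlation of log2 CPM. They are given as a description, since genes that differ between the groups in the same way correlate through those differences. For Inpp5k these were Efemp2 (0.952) and Rhou (0.901), for Derl3 Gsn (0.921) and Thnsl2 (0.917), for Odf2 Qsox2 (0.929) and Cbl (0.925), and for Elmod2 Yeats2 (0.910) and P2rx4 (0.907). For Apba1 they were Pofut1 (0.943) and Dnajc5 (0.891), for Olr1 Gfpt1 (0.953) and Tgfb1 (0.943), for Plxna4 Pmm2 (0.976) and Lrrc41 (0.972), and for Enpp1 Ubfd1 (0.967) and Lman1 (0.924). P2rx4 had log2 differences of 1.20 between let-7d and let-7e, 0.18 between let-7d and control and -1.02 between let-7e and control, where Elmod2 had 0.32, -0.032 and -0.35. Pmm2, most like Plxna4, had -0.15 between let-7d and let-7e, -0.25 between let-7d and control and -0.10 between let-7e and control.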

How the data were processed

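Total RNA was sequenced on an Illumina NovaSeq from 12 libraries, 4 each of let-7d, let-7e and negative control, per the labels; the design text gives n = 6, and the 4 listed were used. The authors deposited raw counts, as whole numbers, for each Ensembl gene. The submitters' processing notes name STAR and GRCm38.p6; for the read counter and strand setting, nothing is given in the sources used here. Genes low in CPM had been removed by the authors, per the table's name. A second deposited table, named RPKM, was not used, because the gene length it implies differs between libraries. Per sample, totals ran from 15071299 to 33396316 counts, and the median SE between the mimics was 0.084 on the log2 scale.

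Of 15754 identifiers, 15736 matched symbols of GENCODE vM21 by stable identifier. After TMM scaling, edgeR 4.0.16 (R 4.3.3) quasi-likelihood tests with terms for group and ID series were fitted to all 12 libraries and all genes (none was removed by filterByExpr), with Benjamini-Hochberg adjustment over 15754 genes and a threshold of 0.05. A fit with group by series gave the difference between series. The procedure was tested on simulated data. Alternatives were DESeq2 1.42.0, limma-voom (limma 3.58.1), DESeq2 size factors, a mean log2 CPM of 1 or more, no filter, the replicate number as a block, no series term, each series alone, and leaving out each library. Correlations used genes with a mean log2 CPM of 2 or more.

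The 8 genes, the lists of relatives and markers, and the tests were chosen with earlier results of these data known. Named relatives were up to 3 per list with the smallest p among those called, of which 1 is not reported here; the nearest relatives by name, Enpp2 among them, Enpp6, the genes with 18 pairs and those called by DESeq2 alone were added after their values were seen. The labels tie no replicate to its own culture or mouse, so the spread behind every p-value is that of these libraries and could be technical. Replicate pairs of a group and series differed beyond counting noise (chi-square per degree of freedom 2.29 to 9.77).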

Additional observations from a re-analysis of the deposited data

How the results depend on the processing

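The log2 difference between let-7d and let-7e kept its sign for 8 of 8 genes in all 21 alternative fits, which the choice of the genes on this contrast favours. The number of genes that passed between the mimics, 24, was 122 with DESeq2, 5 with the replicate block, 1 with no series term, 2 in ID series 1 alone and 1 in ID series 2 alone. It was 3 without let-7d replicate 1, 2 or 4 or let-7e replicate 2 or 3, 4 without let-7e replicate 1, 7 without let-7d replicate 3, 17 without let-7e replicate 4 and 38 without control replicate 3, a range of 3 to 38. All 8 genes passed with DESeq2, 6 with the filter at an average log2 CPM of 1, and only Inpp5k with the replicate block. With no series term, and in either ID series alone, 0 of the 8 passed. The cause of these shifts was not tested. Since this contrast chose the 8 genes, nothing is read from which of them passed.

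For both mimics against control, 2624 genes passed, 10 with no series term, 648 in ID series 2 alone and 1973 to 2564 with 1 library left out; with no series term Odf2, Elmod2, Olr1 and Plxna4 lost their calls (adjusted p from 0.8 to 1). Of the relatives 32 passed, 0 with no series term, 7 in ID series 2 alone and 27 to 34 with 1 library left out; between the mimics 0 passed, and 4 with DESeq2. For the difference between series 63 genes passed, 203 with DESeq2, and with 1 library left out 264 (control replicate 1), 133 (let-7d replicate 4), 30 (let-7d replicate 1), 29 (control replicate 4), 24 (let-7d replicate 3), 8 (let-7e replicate 1), 6 (let-7d replicate 2) and 4 (let-7e replicate 2).

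The sign of both mimics against control turned for Inpp5k in ID series 1 alone (-0.062) and without 1 library (-0.013 to 0.07), and for Enpp1 with no series term (0.0044), in ID series 2 alone (0.048) and without 1 library (-0.079 to 0.025); neither gene passed in any fit. The difference between series turned with 1 library left out for Apba1 (range -0.14 to 0.3; negative without control replicate 2 or 3 or let-7d replicate 4), Plxna4 (-0.11 to 0.37; control replicate 3) and Enpp1 (-0.031 to 0.21; let-7e replicate 3).

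Replicate numbers were checked for pairing through the deviations of same-numbered libraries from their group means, over 11345 genes. These correlated at 0.432 between let-7d and control in ID series 2, and between -0.148 and 0.075 in the other comparisons. The numbers did not pair the libraries of all groups, and pairing of some libraries is not excluded. The replicate block moved the count between the mimics from 24 to 5 and that of both mimics against control from 2624 to 2612, with Olr1 at an adjusted p of 0.0515. Counts of Derl3 in ID series 2, 36 to 53 per library, limit its precision there.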
